A study of Mus musculus with 32 samples.

Results

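The genes described here are 10 mouse genes for secreted signals of activated B cells: the chemokines Ccl22, Ccl17, Ccl3 and Ccl4, the cytokines Il6, Il10, Lta, Ltb and Tnf, and the secreted oxidase Il4i1. They were taken by name, each matching 1 of the 43345 mouse genes in the count tables. The series measured RNA by sequencing in B cells with and without ELOF1, a factor that travels with elongating RNA polymerase II. One system was CH12F3, a mouse B lymphoma line that switches antibody class in culture. All 16 CH12F3 libraries came from Elof1-KO cells, which carried either an ELOF1 construct (ELOF1-proficient) or a vector (ELOF1-deficient), given α-CD40, IL4 and TGF-β and collected at day 1.5, day 3 or day 7. The ELOF1 and vector groups held 4 libraries each at day 1.5 and 2 each at days 3 and 7. The other system was primary splenic B cells, WT or Elof1-cKO, cultured with IL4 and LPS for 2.5 days (5 libraries per genotype) or 3.5 days (3 per genotype). The labels do not give the Cre driver of the conditional knockout, the age of the mice, the number of knockout clones, or whether repeats were separate cultures or animals, so p-values measure the spread between these libraries, which may be technical.

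Chemokines are small secreted proteins that attract leukocytes through G protein coupled receptors. CCL22 and CCL17 both bind CCR4 on helper and regulatory T cells, and are known products of IL4-stimulated and CD40-stimulated antigen-presenting cells. CCL3 and CCL4 are inflammatory chemokines made by B cells after antigen receptor or Toll-like receptor signals. IL6 is an inflammatory cytokine that favours T follicular helper and plasma cell responses, and IL10 is the main anti-inflammatory product of regulatory B cells. Lymphotoxin α, lymphotoxin β and TNF belong to 1 ligand family, are encoded side by side, and shape follicles and other lymphoid structures. IL4I1 is a secreted L-amino acid oxidase that acts mainly on phenylalanine and tryptophan, and its gene is a classic IL4 target in B cells that depends on STAT6.

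Several members are genomic neighbours in the mm10 assembly. Ccl22 (chromosome 8, 94745590 to 94751699) and Ccl17 (chromosome 8, 94810453 to 94812035) lie on the plus strand with 58753 bases between them. Ccl3 (chromosome 11, 83647844 to 83649355, minus strand) and Ccl4 (83662584 to 83664683, plus strand) are 13228 bases apart. Ltb (chromosome 17, 35194439 to 35196320, plus strand), Tnf (35199381 to 35202007, minus strand) and Lta (35203165 to 35205351, minus strand) are separated by 3060 and 1157 bases. Il6 lies on chromosome 5 (30013161 to 30019968, plus strand), Il10 on chromosome 1 (131019845 to 131024974, plus strand) and Il4i1 on chromosome 7 (44816370 to 44840809, plus strand). The exons of Il4i1 share 82 bases (2.0% of its exon length) with Atf5 on the opposite strand and 114 bases (2.8%) with an unnamed gene on the same strand. Reads in the same-strand stretch cannot be assigned to Il4i1 alone. Whether reads in the Atf5 stretch can be depends on the strand setting of the counting, which is not given.

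Promoter sequence from RefSeq (GRCm38.p6) matched 8 members; Ccl4 and Il10 were not matched. The upstream stretches of 4 members are printed from 5′ to 3′ on the strand of the gene, outside the gene models of the count tables. Ccl22 and Ccl17 are shown because these neighbours differed most in level, and Il6 and Lta because they had the largest shortfalls in CH12F3 cells against spleen cells. Capitals mark matches to the NF-kB consensus or to the STAT patterns TTCNNNGAA and TTCNNNNGAA, the second being the form that STAT6 prefers. The Ccl22 stretch is chr8:94745434-94745589 (plus strand), that of Ccl17 is chr8:94810203-94810452 (plus strand), that of Il6 is chr5:30012864-30013113 (plus strand) and that of Lta is chr17:35205352-35205601 (minus strand).
Ccl22: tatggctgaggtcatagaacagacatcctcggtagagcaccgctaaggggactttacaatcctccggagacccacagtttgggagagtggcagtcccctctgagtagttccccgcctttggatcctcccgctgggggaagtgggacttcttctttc
Ccl17: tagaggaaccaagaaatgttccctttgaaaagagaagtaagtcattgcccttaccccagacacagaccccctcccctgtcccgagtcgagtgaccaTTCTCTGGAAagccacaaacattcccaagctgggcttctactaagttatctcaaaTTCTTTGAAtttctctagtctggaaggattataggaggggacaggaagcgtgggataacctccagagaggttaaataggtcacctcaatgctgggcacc
Il6: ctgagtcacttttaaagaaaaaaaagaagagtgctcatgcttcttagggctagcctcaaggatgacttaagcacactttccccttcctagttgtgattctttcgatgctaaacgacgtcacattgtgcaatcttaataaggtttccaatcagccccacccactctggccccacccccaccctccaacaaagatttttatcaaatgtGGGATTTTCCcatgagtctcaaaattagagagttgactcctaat
Lta: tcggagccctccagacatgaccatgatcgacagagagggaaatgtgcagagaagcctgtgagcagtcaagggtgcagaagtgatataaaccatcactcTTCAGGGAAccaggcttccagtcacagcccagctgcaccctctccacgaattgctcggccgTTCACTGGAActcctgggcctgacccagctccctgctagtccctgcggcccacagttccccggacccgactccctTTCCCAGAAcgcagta
Ccl17 held a STAT6-type match beginning at base -154 from its start and a shorter STAT match at -99. Il6 held an NF-kB match at -44. Lta held a STAT6-type match at -91, shorter STAT matches at -152 and -16, and the TATA pattern TATAAA at -167. None of these matches overlapped, and none of the patterns was found in Ccl22, Ccl3 or Il4i1 over the whole 300-base windows. The Il4i1 window (chr7:44836038-44836337) lies inside its counted gene model, which starts at 44816370, so the start of that model was not searched. Ltb held an NF-kB match on the minus strand at -87 and a STAT match at -172, and Tnf held TATAAA at -29. Among 27025 promoter windows of 300 bases searched on both strands, 8.2% held the NF-kB consensus, 7.0% TTCNNNNGAA, 8.5% TTCNNNGAA and 14.2% TATAAA. A match is a description of the letters in a window and does not show that a factor binds there.

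Libraries held 7112130 to 15550229 mouse counts for CH12F3, and 9807560 to 16359477 for spleen, plus fly counts from added Drosophila S2 RNA equal to 2.15% to 8.39% of the mouse counts. Elof1 stood at 0.965 to 5.49 CPM (the reads of a gene scaled to the mouse reads of its library) in the 8 vector libraries against 140 to 681 CPM in the 8 ELOF1 libraries, and at 1.27 to 7.65 CPM in cKO against 10.97 to 55.1 CPM in WT spleen libraries, so every library matched its label. B cell markers such as Cd79a and Ms4a1 were detected in every group. The library numbers in the labels fall into a run under 100 (8 libraries, called the first run here) and a run of higher numbers (24 libraries). Both runs are present in the day 1.5 CH12F3 groups (replicates 1 and 2 are first-run) and in the day 2.5 spleen groups (replicates 4 and 5 are first-run). The 2 runs stood apart for several members, so genotype differences are given from a fit with a term for the run, and for the differences the results turn on also within each run.

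Ccl22, the CCR4 ligand, was the most abundant member in CH12F3 cells by far. Its level per kilobase of exon (RPKM) was 1197 ± 446 (SD, n = 4) in the ELOF1 group at day 1.5 and 1855 ± 454 (n = 4) in the vector group, placing it 37th and 22nd among the 14201 genes tested. Its neighbour Ccl17 stood at 0.618 ± 0.469 RPKM in the same ELOF1 libraries, with 0 to 12 reads in any CH12F3 library. Ltb at 55.0 ± 9.59 RPKM, Il4i1 at 58.6 ± 19.3 RPKM and Tnf at 20.1 ± 16.5 RPKM formed a middle tier there, followed by Il10 at 12 ± 8.6, Ccl3 at 5.71 ± 4.42, Lta at 2.72 ± 1.91, Ccl4 at 0.814 ± 0.898 and Il6 at 0.503 ± 0.445 RPKM. In WT spleen cells at day 2.5 the order was another one, led by Il4i1 at 149 ± 15.2 RPKM (n = 5), then Ccl22 at 37.8 ± 20.6, Ltb at 23.6 ± 4.5, Tnf at 14.4 ± 4.61 and Lta at 11.8 ± 2.82 RPKM. Il6 at 4.12 ± 1.55, Il10 at 2.14 ± 1.55, Ccl3 at 0.926 ± 0.546, Ccl4 at 0.337 ± 0.365 and Ccl17 at 0.137 ± 0.227 RPKM followed. Levels were scaled separately in the 2 tables, so a level set across systems carries that limit.

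Ordered over the 10 groups by mean CPM, the 6 CH12F3 groups came first for Ccl22 and their libraries lay apart from all spleen libraries, while neighbouring groups within each system overlapped. For Il4i1 the 4 spleen groups came first and lay apart from CH12F3. Lta also had its 4 spleen groups on top, at group means of 15.8 to 18.2 CPM against 3.13 to 5.49 CPM. Il10 and Ccl3 had the 6 CH12F3 groups on top. Ltb and Tnf mixed the systems, and every neighbouring pair of groups in their orders overlapped. For Il6 the CH12F3 day 7 groups were highest (8.09 and 8.06 CPM), the spleen groups followed (3.80 to 5.49 CPM), and the other CH12F3 groups lay below (0.546 to 1.93 CPM).

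**Figure D1:**
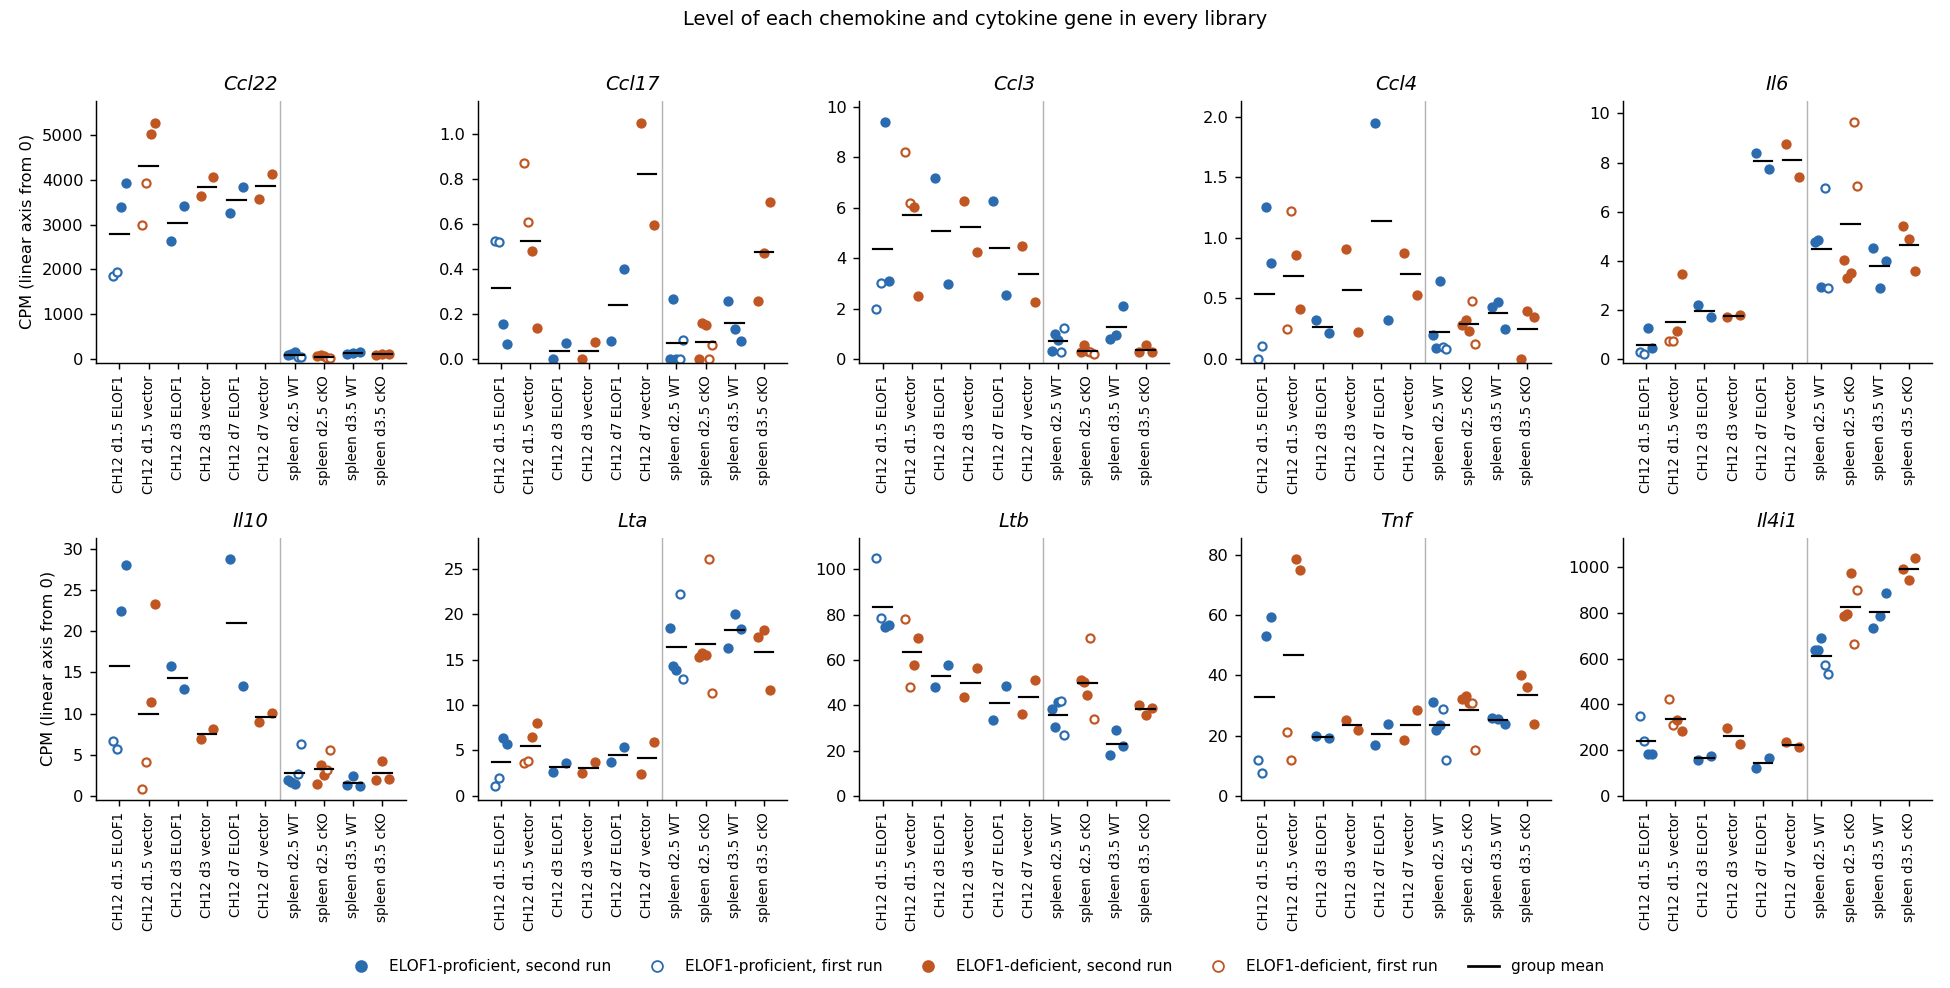
CPM of each member (1 panel per gene, linear axis from 0) in every library by group, with open markers for first-run libraries and filled markers for the others. Ccl22 runs from 1862 to 5285 CPM in CH12F3 and from 12.8 to 156 CPM in spleen, and Il4i1 shows the opposite order of the systems.

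In CH12F3 cells without ELOF1, Ccl22 was higher at day 1.5. The ELOF1 libraries read 1862, 1954, 3393 and 3928 CPM (replicates 1 to 4) and the vector libraries 2997, 3937, 5035 and 5285 CPM. The first-run pair is low in each group, and within each run both vector libraries lie above both ELOF1 libraries. The vector over ELOF1 difference was 0.68 ± 0.12 on the log2 scale (SE, 95% interval 0.42 to 0.93), or 1.60-fold, with an adjusted p of 0.0156 by the quasi-likelihood test of edgeR over all 14201 genes. Of all genes tested, 1.15% passed the same threshold of 0.05 (they are referred to as called). The labels do not say whether libraries of the same replicate number belong together. When they were blocked as pairs in edgeR, the difference was 0.67 ± 0.08 with an adjusted p of 0.0001. That blocked fit called 1221 of all genes. The vector library was higher in 4 of 4 same-numbered pairs, by ratios of 1.35 to 2.02. Within the first run the log2 difference was 0.84 ± 0.22 (adjusted p = 0.213) and within the second 0.48 ± 0.14 (adjusted p = 0.556), 2 libraries per group in each. The call was lost without the ELOF1 replicate 1 (0.62, adjusted p = 0.0702), 2 (0.64, 0.0582) or 3 (0.67, 0.0584), without vector replicate 2 (0.56, 0.0559), with fly spike-in scaling (0.61, adjusted p = 0.415), without the run term (0.63, adjusted p = 0.526) and with the compared groups alone (0.67, adjusted p = 0.0506).

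At day 3 the Ccl22 libraries read 2646 and 3421 CPM with ELOF1 and 3644 and 4058 CPM with vector, and at day 7 they read 3272 and 3838 CPM against 3577 and 4135 CPM. The groups lie apart at day 3 and overlap at day 7. The log2 differences were 0.34 ± 0.17 (adjusted p = 1) and 0.12 ± 0.17 (adjusted p = 0.999), and neither was called. The change in the difference from day 1.5 to day 7 was -0.56 ± 0.21 (adjusted p = 1, 95% interval -1.001 to -0.121), so a weaker difference at day 7 was not shown. The percent of all genes called was 0.00704% at day 3 and 0.0352% at day 7.

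In spleen cells the direction of Ccl22 was the opposite one. At day 2.5 the WT libraries read 97.98, 106, 154, 42.7 and 38.9 CPM (replicates 1 to 5) and the cKO libraries 61.2, 87.5, 70.8, 26.1 and 12.8 CPM. The first-run libraries, replicates 4 and 5, are the low ones in both genotypes, and within each run every cKO library lies below every WT library. Ccl22 fell by 0.85 ± 0.19 on the log2 scale (0.556-fold, 95% interval -1.26 to -0.43, adjusted p = 0.0179, edgeR), where 5.18% of all 13367 genes tested were called. It was -1.09 ± 0.39 within the first run (adjusted p = 0.9999, 2 libraries per group) and -0.71 ± 0.18 within the second (adjusted p = 0.0252, 3 per group). The call was lost without cKO replicate 1 (-0.80, adjusted p = 0.0520) or WT replicate 3 (-0.74, adjusted p = 0.0645), without the run term (-0.77, adjusted p = 0.564) and with the compared groups alone (-0.85, adjusted p = 0.0529). At day 3.5 WT libraries read 105, 131 and 156 CPM and cKO libraries 76.9, 120 and 108 CPM, which overlap, and the difference of -0.36 ± 0.24 was not called (adjusted p = 0.605). The percent of all genes called at day 3.5 was 2.07%.

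The opposite directions were compared directly in a fit of all 32 libraries. The Ccl22 difference in CH12F3 at day 1.5 exceeded that in spleen at day 2.5 by 1.52 ± 0.31 on the log2 scale (95% interval 0.88 to 2.15, adjusted p = 0.0165). Of all 15639 genes in that fit, 0.454% were called for such a difference. Without CH12F3 vector replicate 2 it was 1.31 (adjusted p = 0.0574), with fly scaling 1.62 (adjusted p = 0.0510), and without the run term 1.39 (adjusted p = 0.650). Line, stimulus and day all differ between the systems and cannot be told apart.

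Dendritic cells are a known source of CCL22, so a list of 10 dendritic markers is described beside it. The summed level of that list in spleen at day 2.5 was 36.5 to 92.6 CPM in WT and 19.2 to 39.7 CPM in cKO libraries, and at day 3.5 it was 58.1 to 77.8 against 32.1 to 38.7 CPM. Of its 4 genes tested at day 2.5, 3 were called lower in cKO, beside 5.18% of all genes: Zbtb46 (-0.94 ± 0.15), Flt3 (-1.22 ± 0.30) and Batf3 (-1.22 ± 0.30). At day 3.5 edgeR called 1 of the 4, Zbtb46 (-0.76 ± 0.18), beside 2.07% of all genes. There 3 had an unadjusted p under 0.05, and DESeq2 called 2. Also on the list, Clec9a, Clec10a and Ccl19 were at 0 in every spleen library, and Itgax, which encodes CD11c, reached at most 0.707 CPM. In CH12F3 cells the sum was 68.2 to 77.0 CPM in the ELOF1 and 92.3 to 133 CPM in the vector libraries of day 1.5, with Clec10a at 0, and 0 of 6 tested genes were called there by edgeR, with 3 at an unadjusted p under 0.05 and 2 called by DESeq2. Zbtb46 stood at 32.7 ± 5.29 CPM (SD, n = 4) in the ELOF1 libraries of that B cell line. In the fit of all 32 libraries, ELOF1 CH12F3 day 1.5 was set against WT spleen day 2.5, where 61.8% of all genes were called. Fscn1 (3.54 ± 0.33), Itgax (2.98 ± 0.65), Xcr1 (2.80 ± 0.90) and Zbtb46 (1.22 ± 0.15) were called higher in CH12F3. Flt3 (-2.23 ± 0.38) and Batf3 (-0.95 ± 0.28) were called lower. The part of other cells in the Ccl22 difference was not tested, and in bulk RNA fewer cells of a type and less RNA per cell cannot be told apart.

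**Figure D2:**
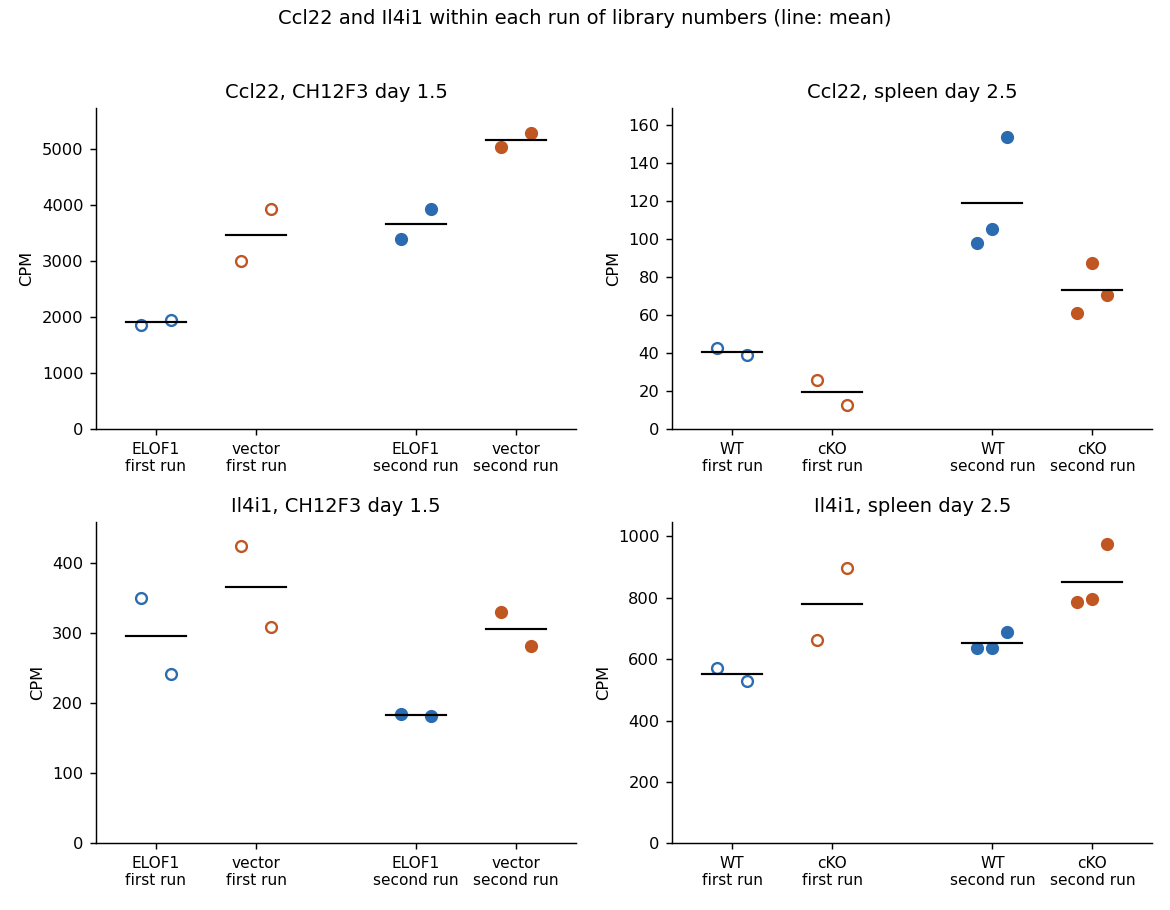
CPM of Ccl22 and Il4i1 in each library of CH12F3 day 1.5 and spleen day 2.5, split by run of library numbers, ELOF1-proficient beside ELOF1-deficient. Ccl22 is higher in deficient CH12F3 libraries and lower in deficient spleen libraries within each run, and Il4i1 is higher in deficient spleen libraries within each run.

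The 3 other chemokines were near the limit of detection or varied widely. Ccl17 gave 1 to 5 reads in the ELOF1 and 2 to 7 in the vector libraries of day 1.5, and the vector library had the higher CPM in 4 of 4 pairs, with a log2 difference of 0.80 ± 0.63 (adjusted p = 0.663). At day 7 it gave 1 and 5 reads with ELOF1 and 12 and 9 with vector (1.71 ± 0.80, adjusted p = 0.879). Ccl4 gave 0 to 24 reads in CH12F3 libraries, with log2 differences of 0.48 ± 0.83 at day 1.5, 1.02 ± 1.22 at day 3 and -0.70 ± 1.01 at day 7, none called. In spleen cells Ccl17 had 0 to 8 and Ccl4 0 to 7 reads per library, and neither passed the filter on low counts. Ccl3 read 1.97, 3.03, 9.40 and 3.10 CPM with ELOF1 and 8.21, 6.20, 6.03 and 2.48 CPM with vector at day 1.5, which overlap (0.40 ± 0.53, adjusted p = 0.831). Its direction differed between the runs, at 1.48 in the first and -0.58 in the second. In spleen cells Ccl3 gave 3 to 15 reads in WT and 3 to 7 in cKO libraries at day 2.5 (-1.15 ± 0.52, adjusted p = 0.249). At day 3.5 it gave 9, 14 and 26 reads in WT and 3, 7 and 3 in cKO, and the groups lie apart (-1.80 ± 0.62, adjusted p = 0.172). These counts leave wide intervals, -3.11 to -0.48 for the last value.

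Il4i1 and Tnf were positive in all 5 genotype comparisons, and Il4i1 was called in 1 of them and Tnf in none. In spleen cells at day 2.5 the WT libraries read 637, 636, 689, 570 and 530 CPM and the cKO libraries 787, 796, 973, 662 and 898 CPM. Every cKO library lies above every WT library of its own run, although the ranges of the whole groups overlap. Il4i1 rose by 0.43 ± 0.09 on the log2 scale (1.35-fold, 95% interval 0.23 to 0.63, adjusted p = 0.0136). The difference was 0.49 ± 0.28 within the first run (adjusted p = 0.9999) and 0.37 ± 0.09 within the second (adjusted p = 0.0183). With fly spike-in scaling it was 0.29 ± 0.18 and not called (adjusted p = 0.630), without the run term it was 0.43 (adjusted p = 0.0708), and with the compared groups alone it was 0.42 (adjusted p = 0.0574). At day 3.5 the WT libraries read 735, 784 and 885 CPM and the cKO libraries 991, 943 and 1038 CPM, which lie apart, and the difference of 0.31 ± 0.12 was not called (adjusted p = 0.254).

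In CH12F3 cells at day 1.5, Il4i1 read 351, 242, 185 and 182 CPM with ELOF1 and 424, 309, 331 and 282 CPM with vector. Here the first-run libraries, replicates 1 and 2, are the higher ones with ELOF1, and the groups overlap. The log2 difference was 0.52 ± 0.15 (adjusted p = 0.123), the vector library being higher in 4 of 4 pairs. With the replicate block, which called 1221 of all genes, the difference was 0.53 ± 0.10 and called (adjusted p = 0.0043). Within the first run it was 0.28 and within the second 0.73 (adjusted p = 0.368). At day 3 the values were 156 and 174 CPM against 296 and 226.4 CPM, and at day 7 they were 123 and 164 against 234 and 212.9 CPM, apart at both days. These differences were 0.66 ± 0.22 (adjusted p = 1) and 0.64 ± 0.22 (adjusted p = 0.718). Over all 5 genotype comparisons the Il4i1 difference ran from 0.31 to 0.66 and was called in 1 of them. The 3 CH12F3 comparisons use separate libraries but share 1 fit. With fly scaling the day 3.5 spleen value was 0.02, where the median of all genes was -0.29.

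The estimates for the 3 linked genes of the TNF family differed in sign. The main fit called none of them in the 5 genotype comparisons, and the genes were not tested against one another. Tnf read 11.9, 7.52, 53.0 and 59.3 CPM with ELOF1 and 21.1, 11.9, 78.8 and 75.1 CPM with vector at day 1.5 in CH12F3. The first-run libraries are low in both groups, and the vector library was higher in 4 of 4 pairs, by ratios of 1.27 to 1.77. Its log2 difference was 0.59 ± 0.20 (adjusted p = 0.190). With the replicate block, which called 1221 of all genes, it was 0.56 ± 0.10 and called (adjusted p = 0.0017). It was 0.74 within the first run and 0.44 within the second. In the other comparisons Tnf differences were 0.27 ± 0.27 (day 3), 0.21 ± 0.27 (day 7), 0.26 ± 0.22 (spleen, day 2.5) and 0.41 ± 0.28 (spleen, day 3.5), with none called.

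Ltb, the membrane-anchored partner of lymphotoxin α, read 105, 78.5, 74.6 and 75.6 CPM with ELOF1 and 78.0, 48.2, 57.7 and 69.8 CPM with vector at day 1.5. The vector library was the lower one in 4 of 4 pairs, and the groups overlap. Its difference of -0.39 ± 0.18 was not called (adjusted p = 0.367). With the replicate block, which called 1221 of all genes, it was -0.40 ± 0.08 and called (adjusted p = 0.0068). Within the first run it was -0.57 and within the second -0.25. In spleen cells the sign was positive. At day 2.5 the WT libraries read 38.1, 30.3, 41.6, 41.9 and 26.9 CPM and the cKO libraries 51.1, 50.1, 44.4, 69.9 and 33.9 CPM, and the cKO value was higher within each run (0.58 and 0.40). That difference, 0.48 ± 0.18, was not called (adjusted p = 0.155), and without cKO replicate 5 it was 0.60 and called (adjusted p = 0.0356). At day 3.5 the WT libraries read 17.8, 28.9 and 22.03 CPM and the cKO libraries 40.1, 35.7 and 39.0 CPM, which lie apart. The difference was 0.73 ± 0.24 (1.66-fold, adjusted p = 0.139), and in a fit of the compared groups alone it was 0.73 ± 0.15 and called (adjusted p = 0.0112). The contrast of the Ltb differences between systems, -0.88 ± 0.27, was not called (adjusted p = 0.189).

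Lta, which encodes lymphotoxin α, read 1.048, 1.98, 6.34 and 5.68 CPM with ELOF1 and 3.61, 3.86, 6.51 and 7.99 CPM with vector at day 1.5. The first-run libraries are low in both groups, and the pair ratios ran from 1.03 to 3.44. The difference was 0.68 ± 0.32 (adjusted p = 0.370), at 1.25 within the first run and 0.26 within the second. The other 4 genotype differences of Lta lay between -0.20 and 0.03 and none was called. The replicate block left Lta uncalled at day 1.5 (0.61, adjusted p = 0.138).

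Il6 was scarce in CH12F3 cells at day 1.5, at 0.262, 0.209, 1.25 and 0.462 CPM with ELOF1 (2 to 16 reads) and 0.746, 0.712, 1.15 and 3.44 CPM with vector (6 to 50 reads). The vector library was higher in 3 of 4 pairs and the groups overlap. The log2 difference of 1.51 ± 0.41 was not called (adjusted p = 0.0993). With the replicate block, which called 1221 of all genes, it was 1.47 ± 0.44 and called (adjusted p = 0.0498). Without vector replicate 3 it was 1.88 and called (adjusted p = 0.0285). At day 3 Il6 read 2.17 and 1.69 CPM against 1.73 and 1.78 CPM, and at day 7 it read 8.38 and 7.74 against 8.77 and 7.42 CPM. Those differences were -0.14 ± 0.46 and 0.00 ± 0.40. At day 1.5 the difference was 1.46 within the second run, and Il6 did not pass the filter in the first. In spleen cells Il6 was at 2.89 to 6.98 CPM in WT and 3.28 to 9.64 CPM in cKO libraries at day 2.5 (0.19 ± 0.27, adjusted p = 0.800), at 0.74 within the first run and -0.23 within the second.

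Il10 read 6.68, 5.74, 22.5 and 28.0 CPM with ELOF1 and 0.871, 4.07, 11.4 and 23.3 CPM with vector at day 1.5. The first-run libraries are again the low ones, and the vector library was lower in 4 of 4 pairs, at ratios of 0.130 to 0.834. The difference was -0.81 ± 0.34 (adjusted p = 0.312), and with the replicate block -0.79 (adjusted p = 0.0627). It was -1.31 within the first run and -0.54 within the second. At day 3 the values were 15.8 and 13.0 against 6.90 and 8.08 CPM, and at day 7 they were 28.7 and 13.3 against 9.04 and 10.1 CPM, apart at both days. Those differences were -0.94 ± 0.46 (adjusted p = 1) and -1.14 ± 0.45 (adjusted p = 0.780), not called. In spleen cells the Il10 differences were 0.34 ± 0.34 at day 2.5 and 0.74 ± 0.45 at day 3.5, also not called.

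**Figure D3:**
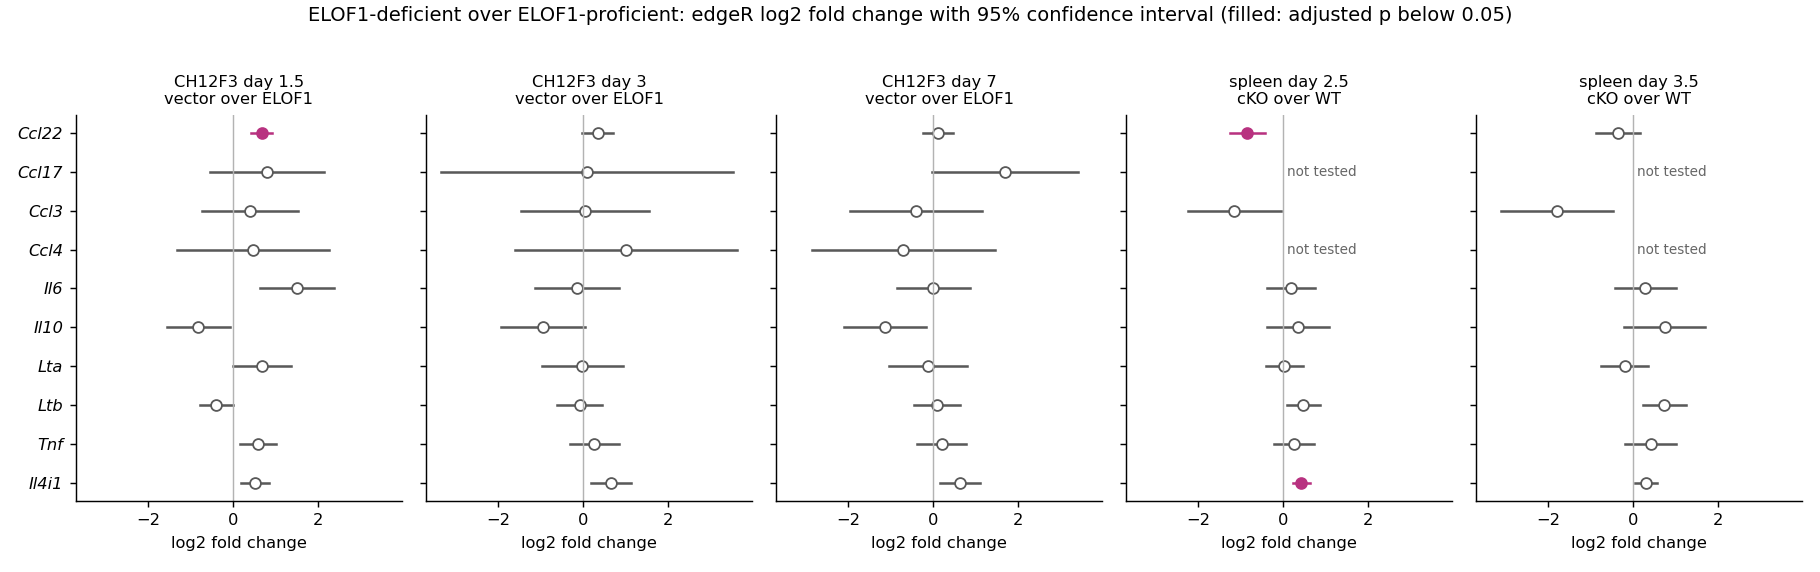
Log2 difference of ELOF1-deficient over ELOF1-proficient libraries for each member in 5 comparisons, with 95% intervals from edgeR and filled markers for an adjusted p under 0.05. Ccl22 at CH12F3 day 1.5 (0.68) and spleen day 2.5 (-0.85) and Il4i1 at spleen day 2.5 (0.43) are filled, and Ccl17 and Ccl4 were not tested in spleen.

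Counted over the members, edgeR called 1 of 10 at day 1.5 in CH12F3, with 7 at an unadjusted p under 0.05 (beside 1904 of all 14201 genes, of which 1.15% were called), 8 positive and a median log2 difference of 0.56, beside 0.01 over all genes. DESeq2 called 3 of the 9 members it gave an adjusted p, and 447 of all genes. The replicate block called 5 members (Ccl22, Il6, Ltb, Tnf and Il4i1), and 1221 of all genes. At days 3 and 7 edgeR called 0 of 10, with 1 and 2 at an unadjusted p under 0.05 (590 and 809 of all genes), and DESeq2 called 0 of 8 at each. In spleen edgeR called 2 of the 8 tested at day 2.5 (5.18% of all genes), with 4 at an unadjusted p under 0.05 (2401 of all 13367) and a median of 0.23, and DESeq2 called 2 of 7. At day 3.5 edgeR called 0 of 8 (2.07% of all genes), with 3 at an unadjusted p under 0.05 (1808 of all) and a median of 0.30, and DESeq2 called 0 of 7. Scaling to the fly RNA put the median of all genes at -0.08 at CH12F3 day 1.5, -0.14 at spleen day 2.5 and -0.29 at spleen day 3.5. It turned the split of called genes from 86 higher of 164 to 5 of 45 at CH12F3 day 1.5, from 377 of 693 to 30 of 93 at spleen day 2.5, and from 153 of 277 to 17 of 105 at spleen day 3.5. All 10 members kept their sign at CH12F3 day 1.5 under it. In the other genotype comparisons the sign turned for Ccl17 and Ccl3 (day 3), Ccl22, Il6 and Ltb (day 7), Lta (spleen day 2.5) and Il6 (spleen day 3.5), none of them called.

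With time in CH12F3 culture, Il6 was higher and Tnf lower by day 7. In ELOF1 cells Il6 rose from the day 1.5 values given above to 8.38 and 7.74 CPM at day 7, a log2 change of 3.27 ± 0.44 (9.62-fold, 95% interval 2.33 to 4.205, adjusted p = 0.0155), where 0.0493% of all genes were called. The call was lost without ELOF1 day 1.5 replicate 4 (2.85, adjusted p = 0.105), without day 7 replicate 1 (3.21, 0.105) or 2 (3.32, 0.102), in the second run alone (3.24, adjusted p = 0.131), without the run term (3.79, adjusted p = 0.152) and with the compared groups alone (3.24, adjusted p = 0.255). In vector cells the Il6 change was 1.76 ± 0.41 and not called (adjusted p = 0.112). The day 7 libraries of both groups lie above all day 1.5 libraries. The difference between these 2 changes was -1.50 ± 0.57 and not called (adjusted p = 1). The summed level of 13 macrophage and monocyte markers was higher at day 7 too, at 125 to 174 CPM against 55.5 to 78.4 CPM in ELOF1 cells and 137 to 236 against 47.6 to 104 CPM in vector cells. Most of the day 7 sum was Adgre1, at 94.8 to 132 CPM in ELOF1 and 113 to 189 CPM in vector libraries, against 5.37 to 31.6 and 16.3 to 66.0 CPM at day 1.5. Also on the list, C1qb and C1qc were at 0 in the libraries of both days, and Lyz2 and Cd14 reached at most 0.163 CPM. In the joint fit, where 61.8% of all genes were called, ELOF1 CH12F3 day 1.5 was set against WT spleen day 2.5. There Csf1r (7.62 ± 0.36) and Adgre1 (2.02 ± 0.47) were called higher in CH12F3. Mrc1, Lyz2, Ly6c2 and Itgam were called lower. Of the 3 markers tested in the CH12F3 fit edgeR called 0 in either group at day 7 over day 1.5. At an unadjusted p under 0.05 were 1 in ELOF1 and 2 in vector cells, and DESeq2 called 1 and 0. The part of these marker genes, or of other cells, in the Il6 change was not tested.

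Tnf in vector cells fell from 78.8 and 75.1 CPM in the second-run libraries of day 1.5 to 18.5 and 28.4 CPM at day 7, while the first-run libraries of day 1.5 read 21.1 and 11.9 CPM. Within the second run the day 7 values lie below those of day 1.5, and over both runs they overlap. With the run term Tnf fell by 1.78 ± 0.26 on the log2 scale (0.292-fold, adjusted p = 0.0162), where 0.169% of all genes were called. The call was lost without vector day 1.5 replicate 3 (-1.80, adjusted p = 0.0558) and without day 7 replicate 1 (-1.50, 0.129) or 2 (-2.09, 0.0740). Without the run term the value was -0.998 (adjusted p = 0.643), and with the compared groups alone -1.71 (adjusted p = 0.319). At day 3 the vector libraries read 25.2 and 22.02 CPM (-1.77 ± 0.26, adjusted p = 0.0731), and without vector day 1.5 replicate 1 that change was -1.68 and called (adjusted p = 0.0390). In ELOF1 cells the changes were -1.45 ± 0.26 at day 3 (adjusted p = 0.277) and -1.39 ± 0.26 at day 7 (adjusted p = 0.0856). The comparisons of days 3 and 7 share their day 1.5 libraries.

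Ltb fell short of a call in ELOF1 cells at day 7, where 33.5 and 48.4 CPM stood below all 4 day 1.5 values (-0.95 ± 0.24, adjusted p = 0.248). Il10 changes lay between -1.08 and -0.41 in the 4 CH12F3 time comparisons, and none was called. In the same comparisons Ccl22 changes ran from -0.52 to 0.05, Il4i1 from -0.47 to -0.13 and Lta from -1.42 to -0.21, none called. The scarcer Ccl3 (-0.89 to 0.11), Ccl4 (-1.41 to 0.65) and Ccl17 (-2.35 to 1.66) were not called either. Of the 10 members, edgeR called 0 at day 3 in ELOF1 cells and 0 in vector cells, with 4 at an unadjusted p under 0.05 in each (598 and 856 of all genes), and DESeq2 called 1 in each. The percent of all genes called was 0.00704% in both. At day 7 edgeR called 1 in each, with 4 in ELOF1 and 5 in vector cells at an unadjusted p under 0.05 (1079 and 1218 of all genes). DESeq2 called 3 and 2 there. Of all genes, 0.0493% and 0.169% were called by edgeR.

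In spleen cells edgeR called 0 of the 8 tested members between days 2.5 and 3.5 in either genotype, with 2 in WT and 1 in cKO at an unadjusted p under 0.05 (2450 and 2108 of all genes), and DESeq2 called 0. Of all genes, 5.45% were called in WT and 3.4% in cKO. Ltb stood at 22.9 ± 5.58 CPM (SD, n = 3) at day 3.5 against 35.8 ± 6.82 CPM (n = 5) at day 2.5 in WT (-0.64 ± 0.23, adjusted p = 0.127), and at 38.3 ± 2.31 against 49.9 ± 13.1 CPM in cKO (-0.38 ± 0.22, adjusted p = 0.450). Within the second run alone the WT change of Ltb was -0.66 and called (adjusted p = 0.0048), as was that of Il4i1 at 0.30 (adjusted p = 0.0309). Ccl22 in cKO cells differed by 0.54 ± 0.23 (adjusted p = 0.247). The genotype differences themselves did not differ by a call between days in either system, with 0% of all genes called in each of the 3 contrasts by edgeR, 0 members called by DESeq2, and 1, 2 and 0 members at an unadjusted p under 0.05 (173, 272 and 278 of all genes).

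**Figure D4:**
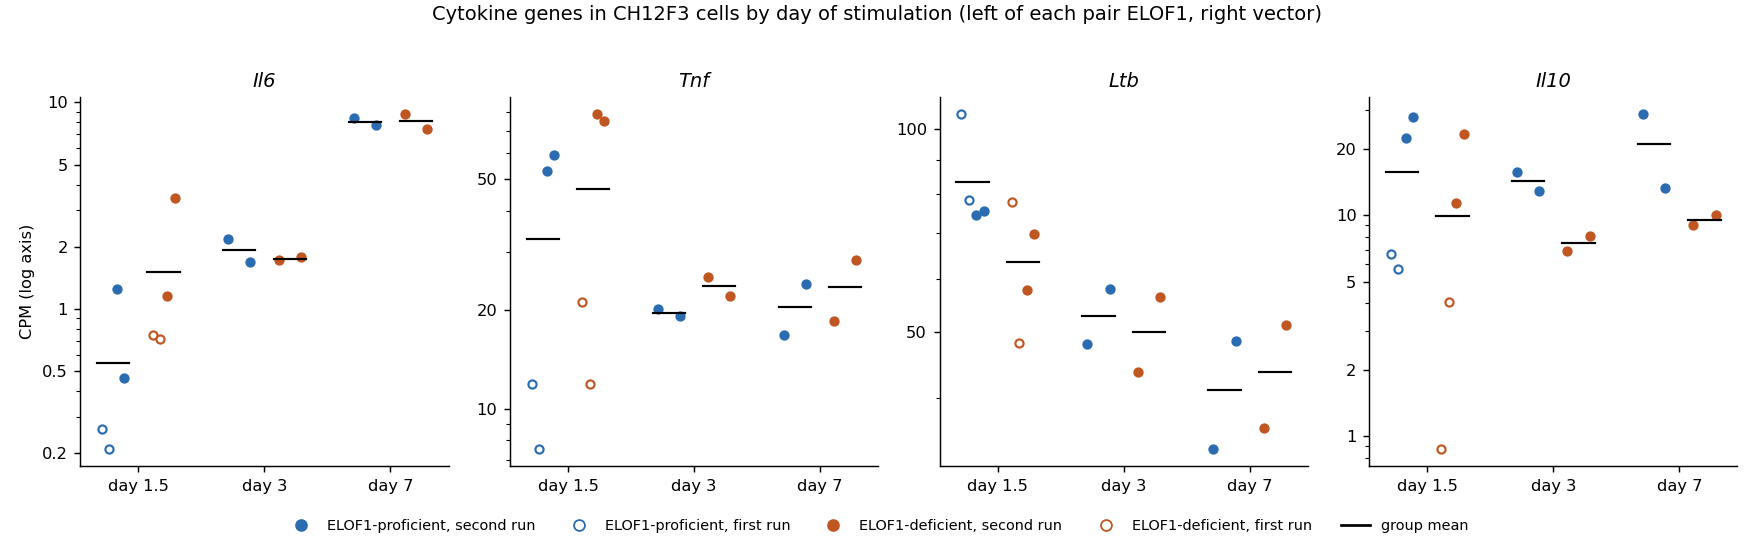
CPM (log axis) of Il6, Tnf, Ltb and Il10 in each CH12F3 library against day of stimulation, ELOF1 libraries on the left and vector libraries on the right of each day, open markers for the first run. Il6 is highest at day 7 in both groups, at 7.42 to 8.77 CPM, and the first-run Tnf libraries of day 1.5 lie below the second-run ones.

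Between systems, ELOF1-proficient CH12F3 cells at day 1.5 and WT spleen cells at day 2.5 differed in most members. In 1 fit of both tables together, 7 of 10 members were called by edgeR, and by DESeq2, where 61.8% of all 15639 genes were called, so the share of members is near the background. Ccl22 was higher in CH12F3 by 5.03 ± 0.25 on the log2 scale (32.7-fold, adjusted p = 5.01e-16). Ccl3 (2.40 ± 0.50), Il10 (2.12 ± 0.59) and Ltb (1.03 ± 0.19) were also higher. Il6 (-3.10 ± 0.49), Lta (-2.29 ± 0.35) and Il4i1 (-1.56 ± 0.16) were lower in CH12F3. Not called were Ccl17 (1.55 ± 0.91), Ccl4 (1.12 ± 0.78) and Tnf (0.07 ± 0.35, 95% interval -0.64 to 0.78). Without WT replicate 2 Ccl17 was called (3.04, adjusted p = 0.0151). Fly scaling put the median of all genes at 0.88, from -0.06, and moved the split of called genes from 4523 higher of 9669 to 9667 of 11214. All 10 members kept their sign under it, and Ccl17, Ccl4 and Tnf were then called higher.

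**Figure D5:**
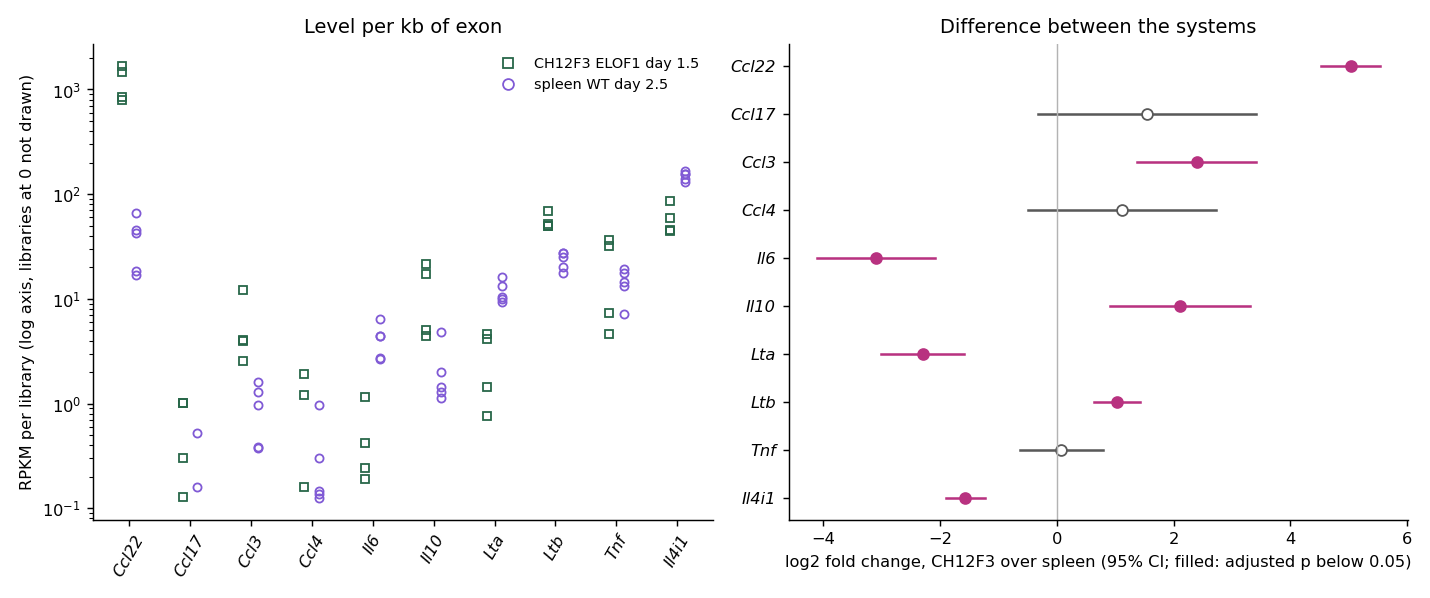
Left, RPKM (log axis) of each member in the ELOF1 CH12F3 libraries of day 1.5 and the WT spleen libraries of day 2.5. Right, the log2 difference of CH12F3 over spleen with 95% intervals, from 5.03 for Ccl22 down to -3.10 for Il6.

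The receptors of these signals were described by a list of 11 genes. At CH12F3 day 1.5 edgeR called 0 of 10 tested, with 1 at an unadjusted p under 0.05, and DESeq2 called 0. In spleen at day 2.5 edgeR called 3 of 8 higher in cKO and 0 lower, beside 5.18% of all genes: Il6ra, the ligand-binding IL6 receptor chain, at 36.6 ± 9.39 against 17.4 ± 3.45 CPM (SD, n = 5 each, log2 difference 1.08 ± 0.17), Il10rb at 24.7 ± 4.42 against 16.8 ± 1.02 CPM (0.55 ± 0.13) and Il10ra at 76.9 ± 16.9 against 53.0 ± 7.17 CPM (0.53 ± 0.15). At day 3.5, where 2.07% of all genes were called, Il6ra was called again, at 45.5 ± 1.27 against 21.9 ± 3.24 CPM (n = 3 each, 1.049 ± 0.21). The ligands Il6 and Il10 were not called in those cells. Ccr4, the receptor for CCL22 and CCL17, was higher at day 3.5 than at day 2.5 in WT (1.12 ± 0.20) and in cKO cells (1.35 ± 0.20).

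Of 19 tested transcription factors that act on these genes, edgeR called 3 higher and 1 lower in vector CH12F3 cells at day 1.5, beside 1.15% of all genes, and DESeq2 called 6. Nfkb2, which encodes the p52 subunit, stood at 253 ± 13.6 CPM with ELOF1 and 364 ± 23.4 CPM with vector (SD, n = 4 each, 0.52 ± 0.06). Stat6, which carries the IL4 signal, stood at 133 ± 26.7 and 185 ± 17.03 CPM (0.48 ± 0.08). Irf4 was at 298 ± 100.3 and 414 ± 116 CPM (0.50 ± 0.10), and Prdm1, which encodes the plasma cell factor BLIMP1, was at 27.0 ± 16.3 and 3.21 ± 1.63 CPM (-2.87 ± 0.62). In spleen at day 2.5 Jun (0.58 ± 0.10), Spi1 (0.40 ± 0.08) and Irf5 (0.32 ± 0.07) were called higher and Irf4 lower (-0.47 ± 0.10), and at day 3.5 Irf4 was lower again (-0.55 ± 0.13). Of 16 genes that control cytokine mRNA or its feedback, edgeR called 0 in each of the 5 genotype comparisons, with 0 to 6 at an unadjusted p under 0.05, and DESeq2 called 1 at CH12F3 day 1.5 and 1 at each spleen day.

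Other cytokines and chemokines were mostly below the filter. Of 29 further chemokine genes 9 were tested in CH12F3 and 4 in spleen, and edgeR called 0 at CH12F3 day 1.5 and 0 at spleen day 2.5, with 1 and 0 at an unadjusted p under 0.05, and DESeq2 called 0 in both. Of 39 further cytokine genes 15 and 10 were tested, and edgeR called 0 at CH12F3 day 1.5 (2 at an unadjusted p under 0.05, and DESeq2 called 2 of 13) and 1 at spleen day 2.5: Clcf1, a cytokine of the IL6 family, at 62.4 ± 15.9 CPM in cKO against 35.8 ± 6.62 CPM in WT spleen at day 2.5 (0.80 ± 0.15). It was called at day 3.5 too (0.82 ± 0.19), and its highest CH12F3 level was 0.524 CPM. Among 12 genes around amino acid oxidation and the aryl hydrocarbon receptor, the tryptophan-degrading enzymes Ido1 and Ido2 were called lower in cKO spleen cells, opposite to Il4i1. Ido1 stood at 9.24 ± 3.20 against 20.3 ± 5.68 CPM at day 2.5 (-1.14 ± 0.15) and Ido2 at 4.53 ± 0.97 against 11.7 ± 1.64 CPM (-1.35 ± 0.16). At day 3.5 they were lower by 0.97 ± 0.19 and 0.998 ± 0.195 on the log2 scale. No test of a list was made.

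Across the 16 libraries of a system, with the run removed, the genes whose log2 CPM followed a member most closely are given as a description. The libraries share genotype and day groups, so these values also carry group differences. For Ccl22 in CH12F3 they were Bcl2l1 (r = 0.95), Ccnd2 (0.94) and Gm25292 (0.94), and in spleen Elk3 (0.90), Xpo7 (0.89) and Rgs12 (0.88), with no gene in common. For Il4i1 they were Bsdc1 (0.93), Rnf43 (0.89) and Maff (0.89) in CH12F3 and Myo1g (0.95), Atp6ap1 (0.92) and Tex261 (0.91) in spleen. Tnf was followed by Dusp16 (0.95), Slc30a9 (0.94) and Higd1a (0.94) in CH12F3 and by A630081D01Rik (0.92), Dyrk2 (0.91) and Ildr1 (0.91) in spleen. Ltb was followed by Zfp36l2 (0.92), Usp11 (0.91) and Phyh (0.91) in CH12F3, and by Sema4d (0.96), Chst11 (0.94) and Rhoh (0.93) in spleen. Lta was followed by Gimap5 (0.90), B4galt5 (0.89) and Hic1 (0.89) in CH12F3 and by Gatad2b (0.92), Fam222b (0.92) and Gm28693 (0.90) in spleen. For Il6 they were Mfhas1 (0.92), Slc25a16 (0.88) and Ggta1 (0.87) in CH12F3, and Pdlim7 (0.86), Gm25777 (0.81) and Hinfp (0.81) in spleen. In CH12F3 alone, where they reached 5 CPM in a group, Il10 was followed by Fars2 (0.87), Gstcd (0.86) and Gtdc1 (0.85), and Ccl3 by Myo5b (0.88), Ccnk (0.84) and Gm29170 (0.84). Between members, the neighbours Lta and Tnf gave r = 0.75 in CH12F3 and 0.73 in spleen, and Ltb and Tnf gave 0.68 and 0.62. Lta and Ltb gave 0.33 and 0.21. The neighbours Ccl22 and Ccl17 gave 0.31 in CH12F3, and Ccl3 and Ccl4 gave 0.61 there. Ccl22 and Lta, which are on different chromosomes, gave 0.78 in CH12F3 and 0.32 in spleen. Ccl22 and Il4i1 gave 0.57 in CH12F3 and -0.46 in spleen.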

How the data were processed

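Total RNA was depleted of ribosomal RNA and made into strand-specific libraries with NEB kits, with polyA RNA of Drosophila S2 cells added, per the labels' protocols and the series' design text. The authors deposited raw featureCounts counts per gene for 32 libraries in 2 tables of 43345 mouse and 17509 fly genes, with Bowtie2, mm10 and dm6 named in the submitters' processing notes. Not given in the sources used here are the strand setting, the gene release and the handling of reads with several matches. Gene symbols came from a name table that matched 42461 mouse genes.

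Counts were fitted per system with edgeR 4.0.16 (R 4.3.3): TMM scaling, the filterByExpr filter with a minimum count of 10, 1 mean per group plus a term for the run of library numbers (under 100 against higher), and the quasi-likelihood test with Benjamini-Hochberg adjustment over all genes tested. A joint fit of all 32 libraries compared the systems. DESeq2 1.42.0 was an alternative, and limma 3.58.1 removed the run before correlations of log2 CPM (prior count 2). CPM are counts scaled to the mouse reads of a library after TMM, and RPKM are CPM per kilobase of counted exon. Standard errors are the absolute log2 difference divided by the root of F. Derived values and figures were made with Python 3.11.15, pandas 2.3.3, NumPy 2.4.6 and matplotlib 3.10.9.

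Groups came from the labels. The members and gene lists were chosen with earlier results of these data known. All 10 members are described whatever their values. Whether groups lie apart, and how many pairs share a direction, only describes the libraries. Neither was tested or counted over all genes, and groups of 2 libraries can easily lie apart by chance. From the other lists up to 4 called genes with the smallest adjusted p are named per comparison, and for members with a group mean of at least 5 CPM the 3 genes of highest correlation are named. Whether replicate numbers pair libraries was checked by the correlation of same-numbered libraries around their group means after the run was removed. At CH12F3 day 1.5 the same-numbered correlations were 0.17, 0.23, 0.18 and 0.26 (replicates 1 to 4). The highest correlations with another number were 0.13, 0.22, 0.26 and 0.22, so the check did not settle the pairing. Blocked values stand beside those results as an alternative only. On simulated counts for CH12F3 day 1.5 (14201 genes) the test recovered 70 of 100 genes changed 2-fold and 95 of 100 changed 4-fold, with 14 false calls. The simulation held no run effect, and only genes above a minimum mean count were changed. Its rates therefore need not hold for the scarce members or for these runs. Alternatives were RLE and fly scaling, no filter, no run term, DESeq2, 1 run alone, the replicate block, the compared groups alone and leaving out each library. The fit of the first run alone and the test between the genotype differences of the systems were added after the data were seen.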

Additional observations from a re-analysis of the deposited data

Results flagged for a closer look

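Of 40 groups of 4 or 5 libraries tested over the 10 members, 6 held a library far from the others of its group by Dixon's test. That test is set to flag about 1 in 20 groups of normally spread values. These groups mix the 2 runs of library numbers and some hold few reads, so that rate need not hold here. Ccl3 stood at 9.40 CPM in ELOF1 CH12F3 day 1.5 replicate 3 and at 1.97 to 3.10 CPM in the other 3 libraries. Ltb stood at 105 CPM in replicate 1 of the same group, with the others at 74.6 to 78.5 CPM. Il6 in vector CH12F3 day 1.5 replicate 4 was at 3.44 CPM, against 0.712 to 1.15 CPM in the rest. Tnf in spleen cKO day 2.5 replicate 5 was at 15.2 CPM, below the 30.7 to 33.1 CPM of the other 4. In WT spleen at day 2.5, Ccl4 replicate 3 read 0.645 CPM against 0.0825 to 0.198 CPM, which is 7 reads against 1 or 2. Il10 in replicate 5 of that group read 6.35 CPM against 1.47 to 2.62 CPM.

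The genotype difference of Ccl22 itself differed between systems, by 1.52 ± 0.31 on the log2 scale (CH12F3 day 1.5 minus spleen day 2.5, adjusted p = 0.0165, edgeR). The vector library was higher in 4 of 4 same-numbered CH12F3 pairs, and in spleen cells every cKO library was below every WT library of its run.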

How the results depend on the processing

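At CH12F3 day 1.5, where 1 was called, fly scaling, no run term, the first or the second run alone (2 libraries per group) and the compared groups alone each called 0, DESeq2 called 3, the replicate block 5 and no filter 6. At day 3 and day 7 (0 called) no filter called 1 and 2. At spleen day 2.5 (2 called) fly scaling called 1, and no run term, the first run alone and the compared groups alone called 0. At spleen day 3.5 (0 called) no filter, the replicate block and the compared groups alone called 1, and the second run alone called 2. Over time, ELOF1 day 3 (0) gave 2 with no filter and 1 with DESeq2. ELOF1 day 7 (1) gave 3 with no filter, 3 with DESeq2, and 0 with no run term, the second run alone or the compared groups alone. Vector day 3 (0) gave 4 with no filter, 1 with fly scaling and 1 with DESeq2. Vector day 7 (1) gave 3 with no filter, 2 with DESeq2, and 0 with no run term or the compared groups alone. Spleen WT (0) gave 1 with no filter and 2 with the second run alone, and spleen cKO (0) gave 1 with no filter. The contrast of genotype differences between systems (1) gave 0 with fly scaling or no run term and 2 with no filter. Leaving out 1 library gave 0 to 2 calls at CH12F3 day 1.5, 1 to 3 at spleen day 2.5, 0 to 1 in ELOF1 day 7, vector day 3, vector day 7 and the contrast between systems, and 7 to 8 between systems. RLE scaling changed none of these counts. The causes were not tested. Among single-member values called under at least 1 setting, 531 alternatives kept direction and side of the threshold, 49 gained and 32 lost a call, and 4 turned the sign: Tnf between systems was -0.08 and -0.17 without ELOF1 day 1.5 replicate 3 or 4, and -0.08 and -0.07 without WT day 2.5 replicate 2 or 3 (-0.17 to 0.47 over all single libraries left out). Values never called also turned sign, among them those given with the fly scaling. Over all genes, calls at CH12F3 day 1.5 were 164 (DESeq2 447, replicate block 1221, no filter 735, fly scaling 45, no run term 22, compared groups 64), at spleen day 2.5 693 (block 1543, fly scaling 93, no run term 203, compared groups 343) and at spleen day 3.5 277 (DESeq2 573, block 830, no filter 512, fly scaling 105, no run term 87, compared groups 864, second run alone 1206). The check did not settle at any day whether the numbers pair the libraries. Same-numbered correlations after the run ran from -0.27 to 0.65 at spleen day 2.5 and from -0.28 to 0.07 at day 3.5. At spleen day 2.5 replicates 4 and 5 gave 0.65 each, against at most 0.19 and 0.18 with another number. Days 3 and 7 of CH12F3 have 2 pairs each (0.50 and 0.34). The block called Ltb in spleen at both days (0.46, adjusted p = 0.0158 and 0.75, adjusted p = 0.0080). Ccl17 and Ccl4, at 0 to 24 reads, are limited by depth.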
